A study of Homo sapiens with 8 samples.

Results

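The enzymes that hydroxylate and cross-link collagen were described across 2D and 3D cultures of A549, a human lung adenocarcinoma cell line, with and without TNF and TGFβ. They were listed by function, with no measured value in the rule, as LOX, LOXL1 to LOXL4, PLOD1 to PLOD3, P4HA1 and P4HA2, and make up 10 of the 19775 genes measured. The groups were 2D control, 2D treated, 3D control and 3D treated, with 2 Affymetrix U133 plus 2.0 arrays each. In the 2D groups cells grew as a monolayer, and in the 3D groups as spheroids that had aggregated in hanging drops under a plate lid. Treated cultures of both kinds received 10 ng/mL TNF together with 2 ng/mL TGFβ in 2 rounds of 48 h, and control cultures received neither cytokine. The 4 groups are thus 1 unmodified line in different culture, without the fibroblasts that make most collagen in lung, and the comparisons ask how the shape of the culture and the cytokines change each enzyme's mRNA. The arrays measure mRNA of a whole culture, so a change in the share of cells that express a gene and a change in the mRNA per cell cannot be told apart. Enzyme activity, hydroxylated residues and cross-links were not measured.

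Collagen chains are modified while they are made and again after they leave the cell. In the endoplasmic reticulum, P4HA1 and P4HA2 are alternative catalytic α subunits of prolyl 4-hydroxylase, and the hydroxyproline they make stabilizes the collagen triple helix. PLOD1, PLOD2 and PLOD3 encode lysyl hydroxylases, of which the PLOD2 product acts on the telopeptides at the chain ends and so sets the type of cross-link formed there. Both enzyme families need oxygen, 2-oxoglutarate, iron and ascorbate. Outside the cell, LOX and the related LOXL1 to LOXL4 are copper-dependent amine oxidases that turn lysine and hydroxylysine into aldehydes, which then condense into the cross-links of collagen and elastin. Several of these genes are known targets of hypoxia-inducible factor (HIF), and LOX and PLOD2 are also known to respond to TGFβ.

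The sequences before the start sites of LOX, PLOD2, P4HA1 and P4HA2 are shown because these genes were higher in spheroids and because all but P4HA2 hold the hypoxia response core, ACGTG on either strand. RefSeq sequences on GRCh38.p14 were found for 9 of the 10 genes, without LOXL2, which was also higher in spheroids. The 250 bases before each start of these 9 were searched. The core was present in 3 of them (LOX, PLOD2 and P4HA1), and counted in the same way, before any listed start, it was present in 21.7% of the 27305 genes of the table. Counted by start, it was in 5 of the 12 windows of the family and in 18.5% of all 35116 windows. All 3 LOX starts are among those 5, so the count by start is not one of separate genes. LOX is shown for the first of its 3 listed starts (chr5:122078260-122078509), with PLOD2 (chr3:146161185-146161434), P4HA1 (chr10:73096867-73097116) and P4HA2 (chr5:132227092-132227341), all on the minus strand. Capitals mark ACGTG or its reverse complement, CACGT.
LOX: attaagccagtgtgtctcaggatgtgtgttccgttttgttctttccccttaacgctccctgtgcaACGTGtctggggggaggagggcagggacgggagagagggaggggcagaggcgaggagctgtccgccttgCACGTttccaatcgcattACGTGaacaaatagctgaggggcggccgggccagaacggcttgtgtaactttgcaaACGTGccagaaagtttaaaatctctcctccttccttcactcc
PLOD2: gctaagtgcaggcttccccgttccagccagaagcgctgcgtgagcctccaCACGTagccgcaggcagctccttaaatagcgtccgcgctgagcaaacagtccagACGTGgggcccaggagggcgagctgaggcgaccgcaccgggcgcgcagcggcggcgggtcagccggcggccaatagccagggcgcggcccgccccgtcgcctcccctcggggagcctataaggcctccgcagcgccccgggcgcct
P4HA1: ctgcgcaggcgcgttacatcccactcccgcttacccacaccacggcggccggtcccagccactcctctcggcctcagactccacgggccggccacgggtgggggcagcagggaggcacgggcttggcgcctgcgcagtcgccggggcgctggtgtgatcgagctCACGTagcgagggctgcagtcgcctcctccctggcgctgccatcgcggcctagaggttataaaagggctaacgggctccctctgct
P4HA2: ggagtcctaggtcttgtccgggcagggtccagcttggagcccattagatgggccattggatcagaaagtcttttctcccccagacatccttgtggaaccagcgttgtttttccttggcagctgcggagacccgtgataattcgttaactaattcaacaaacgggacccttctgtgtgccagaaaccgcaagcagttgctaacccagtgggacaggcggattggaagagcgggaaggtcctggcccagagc

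The first LOX start has 4 matches, which begin 185, 116, 98 and 42 bases before it, and the windows of the other 2 LOX starts overlap and share a single match. PLOD2 has 2 matches, 200 and 146 bases before its start, and P4HA1 has 1, at 86 bases. P4HA2 has none in this window, and neither do LOXL1, LOXL3, LOXL4, PLOD1 and PLOD3. The AP-1 motif TGANTCA was found before no member (8.1% of all genes), the SMAD element CAGAC before 5 (42.8%) and the NF-κB consensus before 1, LOXL4 (6.3%), on both strands and with overlaps allowed. A match is a run of letters and does not show that a factor binds there.

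The values are log2 expression values deposited by the authors, and array medians lay between 2.43 and 2.50. All 6 epithelial markers and all 5 markers of the NRF2-driven enzymes typical of A549 cells were above the array median on every array. Of 6 fibroblast markers none was above it on all arrays, DCN, PDGFRB and THY1 were below it on all, and the mean level of the 6 was 2.28 to 2.41 on 3D control and 2.36 to 2.89 on 3D treated arrays. As a check of the treatment, 6 of 7 known TNF and TGFβ response genes were higher in treated than in control spheroids, and limma called none in 2D (5 at an unadjusted p under 0.05).

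Of the 10 enzymes, 8 were above the array median on all 8 arrays. A gene is represented by its probe set with the highest mean, and levels are compared between groups of the same probe set only, because probes differ in their response. P4HA1 lay at 9.59 and 9.49 on the 2D control arrays, 10.12 and 9.70 on the 2D treated, 12.58 and 12.86 on the 3D control and 12.32 and 12.65 on the 3D treated arrays. All 4 spheroid arrays were thus above all 4 monolayer arrays, while the treated and control spheroids overlapped. P4HA2, the other α subunit, was at 10.14 and 10.20, then 11.18 and 10.69, then 12.27 and 12.30, and finally 13.43 and 13.42 in the same order of groups. Its 4 groups did not overlap, and their means were ordered from 2D control through 2D treated and 3D control to 3D treated, although the 2D neighbours did not pass the test given below.

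PLOD2 was at 12.46 and 12.66 on 2D control arrays, 12.79 and 12.73 on 2D treated, 13.57 and 13.54 on 3D control and 13.87 and 13.89 on 3D treated arrays. The order of groups was that of P4HA2 over a smaller range. PLOD1 stayed between 9.18 and 9.83 and PLOD3 between 8.79 and 9.06 on all arrays. These other lysyl hydroxylases, of which the PLOD1 product acts on the helical part of the chain and the PLOD3 product also glycosylates hydroxylysine, had group means no more than 0.48 and 0.16 apart.

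LOX was at 5.77 and 5.39 on 2D control, 6.49 and 6.21 on 2D treated, 8.12 and 7.98 on 3D control and 10.49 and 9.96 on 3D treated arrays. LOXL2 was at 9.16 and 9.28, 10.54 and 9.73, 11.05 and 11.07, and 12.27 and 12.31 in the same order. For both oxidases the 4 groups again did not overlap and followed the order of P4HA2. The remaining oxidases carried little signal. LOXL1 had the value 2.23 on every array, below each array's median, and LOXL3 lay between 2.48 and 2.51, at the median. LOXL4 was higher than these, from 3.48 to 4.29, and its groups overlapped.

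**Figure D1:**
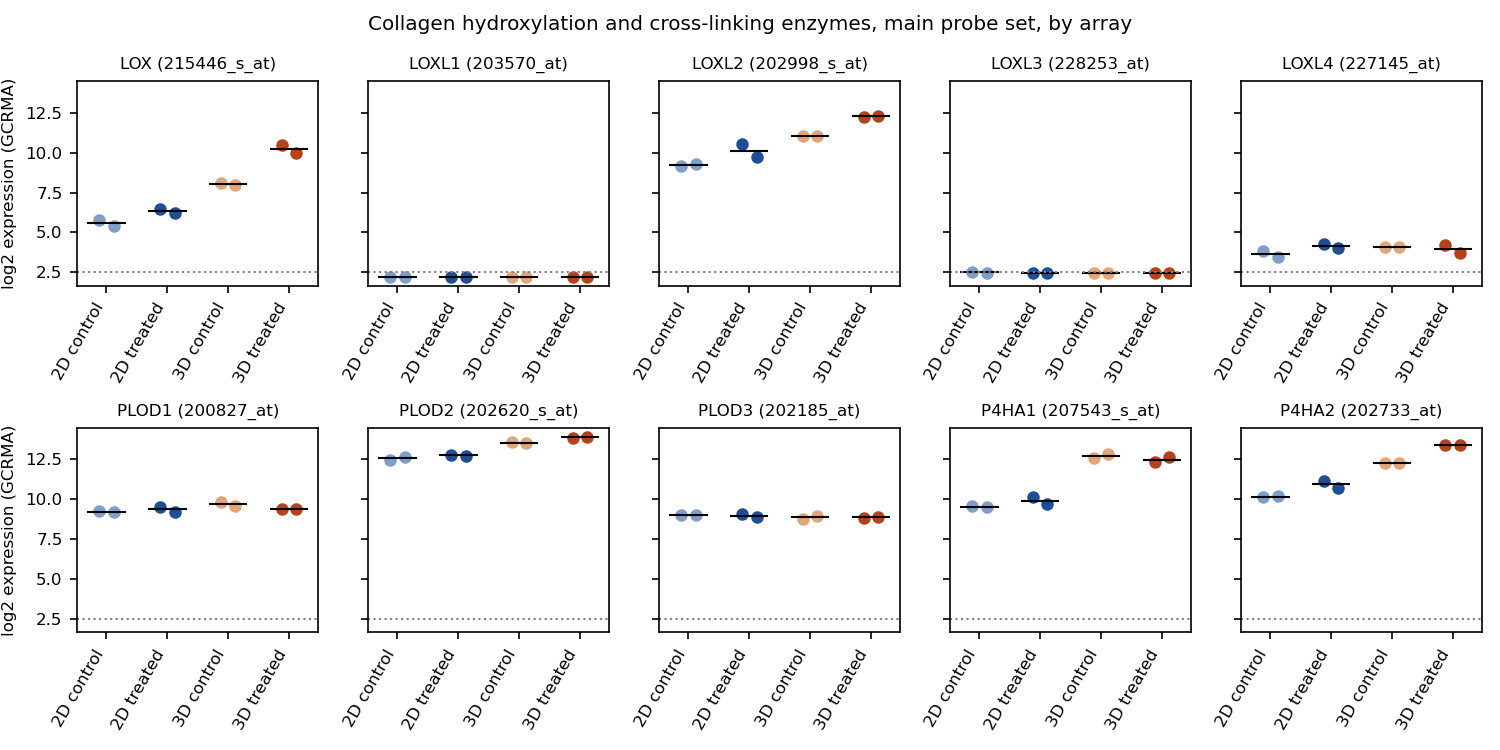
Log2 expression of the 10 enzymes on each of the 8 arrays, by group, with 1 point an array and a bar at the group mean; the dotted line is the highest array median. LOX, LOXL2, PLOD2, P4HA1 and P4HA2 sit higher on the 4 spheroid arrays than on the 4 monolayer arrays, and LOXL1 and LOXL3 stay at the dotted line or below it.

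Untreated spheroids held more mRNA of enzymes from each step of the pathway than untreated monolayers. P4HA1 was 9.06-fold higher (log2 fold-change 3.18, SE 0.207, limma adjusted p = 0.00881) and P4HA2 4.34-fold higher (2.12, SE 0.167, adjusted p = 0.0122). LOX was 5.56-fold higher (2.47, SE 0.246, limma adjusted p = 0.0182), LOXL2 3.57-fold (1.84, SE 0.277, adjusted p = 0.0373) and PLOD2 1.99-fold (0.99, SE 0.07, adjusted p = 0.0101). These 5 were all that passed, none of the 10 was lower, and over all 19775 genes 5.77% were higher and 4.90% lower. The median difference of the family was 0.74, beside a median of 0 for all genes. PLOD1 had a log2 difference of 0.48 (limma adjusted p = 0.124) and PLOD3 one of -0.16 (adjusted p = 0.434). With each array left out in turn the calls of P4HA1, P4HA2 and PLOD2 held, whereas that of LOX was lost without 2D control replicate 2 (limma adjusted p = 0.0581) or either 3D control replicate (0.0628 and 0.0627), and that of LOXL2 without any single array of the 2D control, 3D control or 3D treated groups (0.0895 to 0.141).

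The same 5 enzymes were higher in treated spheroids than in treated monolayers. The group means of this comparison share no array with those of the one above. The spread of each gene was estimated from all 4 groups together, with the same SE in both comparisons (0.246 for LOX). The calls of the culture comparisons are therefore not independent. LOX was 14.7-fold higher (log2 fold-change 3.88, limma adjusted p = 0.00347), P4HA1 5.95-fold (2.57, adjusted p = 0.00519), P4HA2 5.63-fold (2.49, adjusted p = 0.00383), LOXL2 4.46-fold (2.16, adjusted p = 0.0134) and PLOD2 2.18-fold (1.12, adjusted p = 0.0034). Again none was lower, against 9.06% of all genes higher and 14.5% lower. On main probe sets the largest culture difference of the 10 was thus that of P4HA1 among control cultures and that of LOX among treated cultures. Another LOX probe set differed by 3.38 among control cultures, more than P4HA1 at 3.18, so the first rank depends on the probe set. The call of LOXL2 was lost without 3D treated replicate 2 (limma adjusted p = 0.0569).

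In spheroids an oxidase and a prolyl hydroxylase subunit rose with treatment. LOX was 4.51-fold higher in treated than in control spheroids (log2 fold-change 2.17, SE 0.246, limma adjusted p = 0.0146), and P4HA2 was 2.20-fold higher (1.14, SE 0.167, adjusted p = 0.0256). These were 2 of 10 members, and none was lower, where 5.53% of all genes were higher and 10.8% lower. The family median was 0.01. LOXL2 had a log2 difference of 1.23 (95% interval 0.48 to 1.98, limma adjusted p = 0.0716) and PLOD2 one of 0.33 (adjusted p = 0.0639), neither past the threshold of 0.05. The difference of P4HA1 was -0.23, with an interval from -0.79 to 0.32 (limma adjusted p = 0.672), so the α subunit with the largest culture difference had no treatment response that could be told from 0. For PLOD1 it was -0.33 (interval -0.67 to 0.02), for LOXL4 -0.14 and for PLOD3 0.02. This comparison shares the 3D control arrays with the first one, so the differences of a gene in both are not independent.

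Both treatment calls were lost in some fits with an array left out, though the differences in those fits changed little. Without either 3D control replicate LOX differed by 2.24 and 2.10 and was not called. P4HA2 was not called when any single array of the 2D control, 3D control or 3D treated groups was left out. Its differences were then 1.12 to 1.15. Such fits estimate the spread from fewer arrays, and the 2D control arrays are not part of this comparison. LOXL2 passed with array medians subtracted (limma adjusted p = 0.0479), with dim probe sets left out (0.0172), with the 3D arrays alone (0.0228) and without either 2D treated array (0.00981). With the 3D arrays alone LOX was not called (0.109). In the same spheroids 4 of the 6 epithelial markers were lower, EPCAM, CDH1, KRT8 and KRT18, with log2 differences from -2.20 to -0.57, and the others were not called, at -0.74 for KRT19 and 0.91 for KRT7. The part of these, or of the fibroblast marker level given above, in the enzyme responses was not tested.

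In monolayers limma called none of the 10 with the same treatment (4 at an unadjusted p under 0.05), and the family median was 0.28. Few genes of any kind were called there, 0.121% higher and 0.0759% lower. The log2 differences were 0.91 for LOXL2 (limma adjusted p = 0.479), 0.77 for LOX (0.509), 0.76 for P4HA2 (0.296), 0.47 for LOXL4 (0.872), 0.37 for P4HA1 (0.92) and 0.20 for PLOD2 (0.594). The 2D treated arrays of LOXL2 had an SD of 0.571 (n = 2), beside 0.083 in 2D control. Without 2D treated replicate 2 LOXL2 and P4HA2 were called (limma adjusted p = 0.00701 and 0.00231), as was P4HA2 without 2D treated replicate 1 (0.0197).

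Whether the responses of spheroids and monolayers differ was tested directly, and limma called none of the 10 (1 at an unadjusted p under 0.05), where 1.32% of all genes had a higher and 1.94% a lower response in 3D. The 1 was LOX, whose response was 1.40 larger in 3D on the log2 scale (95% interval 0.47 to 2.34, limma adjusted p = 0.152). For LOXL2 the difference of responses was 0.32 (interval -0.73 to 1.38), for P4HA2 0.38 (-0.26 to 1.01), for PLOD2 0.13 (-0.14 to 0.40) and for P4HA1 -0.61 (-1.39 to 0.18). These values are from main probe sets. Other LOX probe sets gave 2.36 and 4.25 (limma adjusted p = 0.179 and 0.0557), the latter from one below the array medians in control monolayers. The second P4HA2 probe set gave 1.12, with an interval that leaves out 0 (0.38 to 1.86, limma adjusted p = 0.15). On main probe sets all intervals include 0 except that of LOX. Those of LOXL2 and P4HA2 also allow differences of or near the size of the 3D response. Without 2D treated replicate 1 the difference of P4HA2 was 0.62 and was called (limma adjusted p = 0.019).

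**Figure D2:**
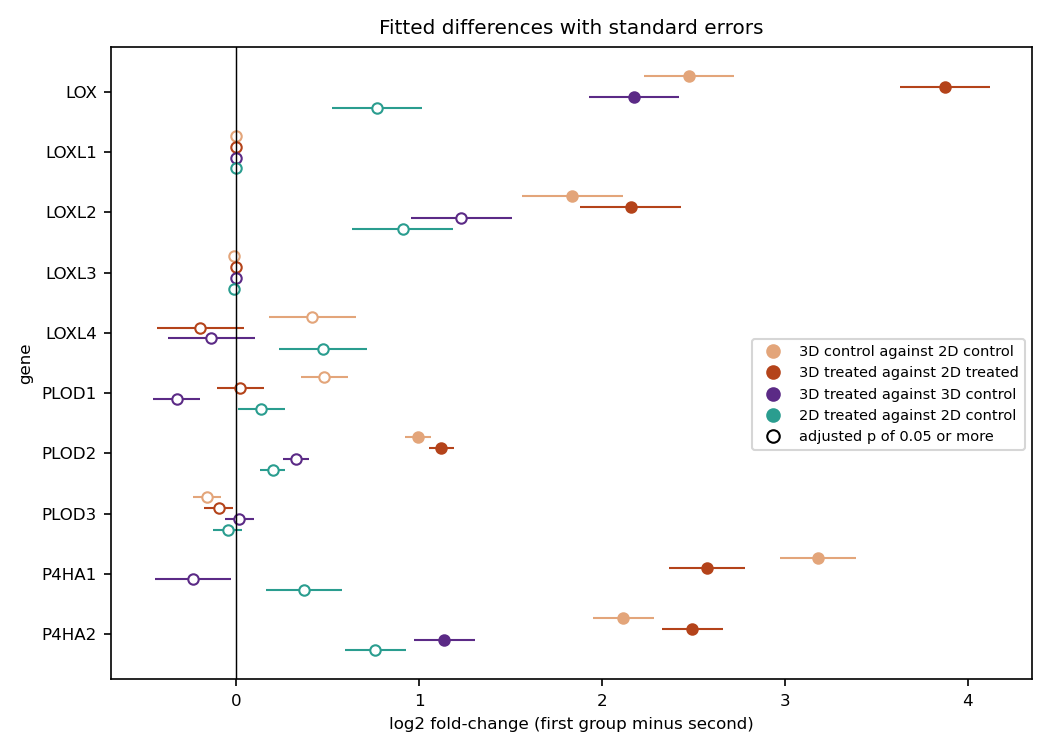
Log2 fold-changes of the 10 enzymes with their standard errors in 4 comparisons, with filled points for a limma adjusted p under 0.05. The filled points of both culture comparisons are the same 5 genes, LOX and P4HA2 alone are filled for treated against control spheroids, and no point is filled for monolayers.

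The array holds 20 probe sets for the family, and 6 members have more than 1. For LOX all 3 probe sets were higher in treated than in control spheroids, with log2 differences of 2.17, 3.38 and 4.57 (limma adjusted p = 0.0146, 0.0206 and 0.00955). The size of the LOX response therefore depends on the probe set, and its direction does not. The probe set that gave the largest response read 2.23 and 2.25 in control monolayers, below the array medians, 3.63 and 2.91 in control spheroids and 8.23 and 7.45 in treated ones. Between controls it therefore gives only a lower bound, at least 1.76-fold, and was not called (limma adjusted p = 0.306), whereas the probe set with the response of 3.38 was called for culture (log2 difference 3.38, adjusted p = 0.0292).

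PLOD2 was called on both of its probe sets in the culture comparison of controls, at 0.99 and 1.68 (limma adjusted p = 0.0101 and 0.00768). For LOXL2 the second informative probe set differed by 2.11 (limma adjusted p = 0.0361) between controls and by 1.56 with treatment (0.0539), and the 2 others stayed at 2.23 on all arrays. P4HA2 differed between its probe sets. On the second the culture difference among controls was 0.52 (limma adjusted p = 0.261) while the 3D treatment response was 1.47 (adjusted p = 0.0202), and on the main one they were 2.12 and 1.14. Between treated cultures the second was called too (1.64, limma adjusted p = 0.0112), so that only the comparison of controls was called on the main one alone, and another probe set was flat at 2.26.

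**Figure D3:**
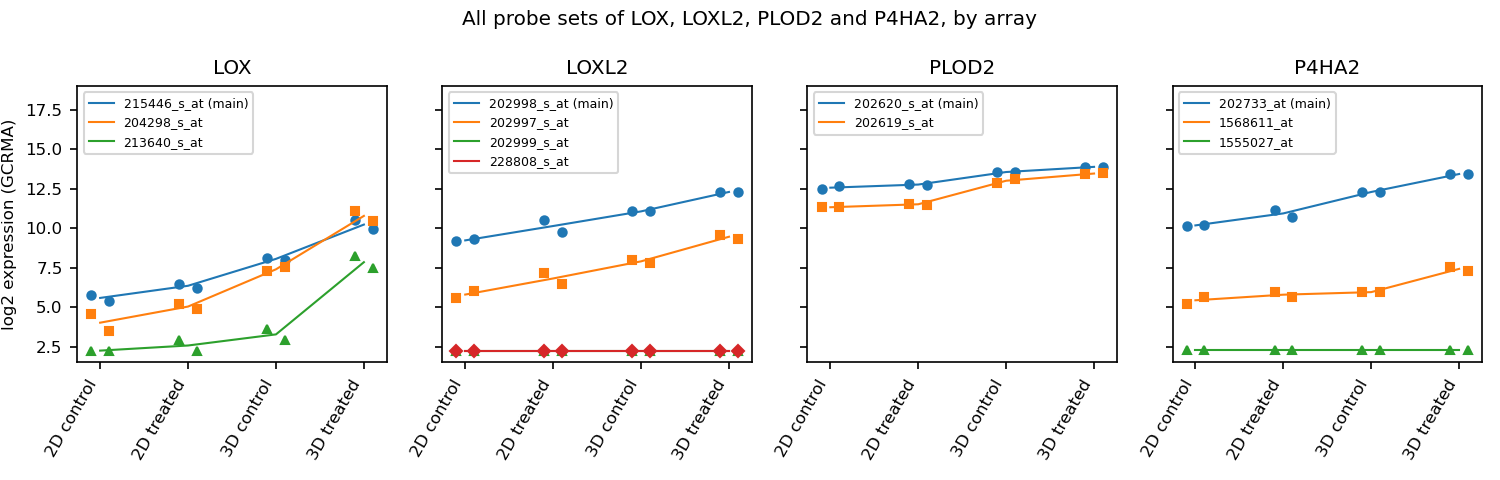
Log2 expression of every probe set of LOX, LOXL2, PLOD2 and P4HA2 on the 8 arrays, by group. The 3 LOX lines all rise from control to treated spheroids, 2 LOXL2 lines and 1 P4HA2 line lie flat at 2.23 and 2.26, and the second P4HA2 line differs between control cultures by 0.52, against 2.12 for the main one.

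Genes with the most similar pattern were sought for the 4 members whose group means spanned over 2 on the log2 scale, as the root mean square difference of gene-centred log2 values over the 8 arrays, among 12660 genes that exceeded the array median on 2 or more arrays. LOXL2 and P4HA2 were each other's nearest gene, with a difference of 0.186. Next to LOXL2 came PPP1R18 at 0.228 and MAFF, a small Maf transcription factor, at 0.233, and next to P4HA2 came TRIM29 at 0.203 and METRNL at 0.214. The nearest to P4HA1 were FAM13A (0.185), TNS1, which encodes the focal adhesion protein tensin 1 (0.217), and ENO2, a glycolytic enolase (0.248). LOX had neighbours at larger differences, SLC22A4 (0.394), CSRNP1 (0.415) and UPP1, a uridine phosphorylase (0.42). The measure is not scaled to the range of a gene. The group means of LOX spanned 4.646, beside 3.068 to 3.255 for the other members searched. All 4 searches use the same 8 arrays, and much of each pattern is the contrast of spheroids with monolayers.

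The other genes of collagen modification in the endoplasmic reticulum were called between control cultures about as often as all genes (5.77% higher and 4.90% lower). Of 13 measured, none was higher (1 at an unadjusted p under 0.05) and 1 was lower in control spheroids than in control monolayers, FKBP14, a prolyl isomerase (-0.59, limma adjusted p = 0.0304), with a list median of -0.14. P4HB, the β subunit that both α subunits need, differed by 0.28 (limma adjusted p = 0.139), the prolyl 3-hydroxylase P3H1 by -0.09 and the isomerase FKBP10 by 0.24. With treatment of spheroids P4HA3, a further α subunit, rose 10.2-fold (log2 fold-change 3.35, limma adjusted p = 0.00987), from 6.98 and 7.36 to 10.88 and 10.16. The collagen chaperone gene SERPINH1 fell by 0.97 (limma adjusted p = 0.0433), from 9.53 and 9.64 to 8.81 and 8.43. The other 11 were not called, with P4HB at -0.15.

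Among the substrates and partners a few genes rose in treated spheroids. BMP1, the procollagen C-proteinase that also activates the LOX precursor, was 2.78-fold higher (limma adjusted p = 0.0112) as 1 of 8 proteases and enhancers, and its response was 1.80 larger in 3D than in 2D (adjusted p = 0.0396). Of 11 fibrillar collagen chains COL5A1 and COL27A1 had log2 differences of 4.14 and 1.48 (adjusted p from limma of 0.0152 and 0.0258). COL1A1 differed by 0.31 on its main probe set (limma adjusted p = 0.587). The paper takes the probe set with the largest change for each gene and reports COL1A1 as higher in treated spheroids. Other COL1A1 probe sets are not given here. In this cell line 5 of the 11 chains were near background in all groups. Of 13 elastic fibre and partner genes only LTBP4, a latent TGFβ binding protein, rose (5.34-fold, limma adjusted p = 0.00172), while FN1, which encodes fibronectin, differed by 0.08 (adjusted p = 0.944). In control spheroids limma called no gene of these 3 lists higher than in control monolayers (none at an unadjusted p under 0.05 either), where 5.77% of all genes were higher, and 4 of the 8 proteases and 4 of the 13 elastic fibre genes were near background in all groups too. FBN2, a fibrillin, was 13.7-fold lower (-3.78, limma adjusted p = 0.0241).

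Genes of the hypoxia response differed between cultures in the same direction as the 5 enzymes. Of 17 measured, 16 were higher in control spheroids than in control monolayers and none lower (median 1.88), led by ANGPTL4, HK2, NDRG1 and ANKRD37 at 5.96, 4.95, 4.85 and 4.51 (limma adjusted p = 0.00628, 0.00532, 0.00628 and 0.00885). Among treated cultures 15 of 17 were higher (median 1.80). Over all genes 5.77% were higher and 4.9% lower between control cultures, and 9.06% and 14.5% between treated ones. The HIF prolyl hydroxylase gene EGLN3, itself a known HIF target, lay at 5.39 and 4.53 in control monolayers and at 10.80 and 11.07 in control spheroids (5.97, limma adjusted p = 0.0212), as 1 of 5 oxygen-sensing dioxygenases called. The part of oxygen supply in the enzyme differences was not tested. With treatment of spheroids the hypoxia list gave 4 higher and 1 lower (median 0.31), where 5.53% of all genes were higher and 10.8% lower. The higher ones were led by ANGPTL4 (1.84, limma adjusted p = 0.0324) and SLC2A1, a glucose transporter (1.38, adjusted p = 0.0275). PGK1 was the lower one (-0.35, limma adjusted p = 0.0457). The count of 16 fell to 10 without either 3D control replicate and to 4 with the 4 control arrays alone, and the 5 calls with treatment to none without 3D control replicate 1, 3D control replicate 2 or 3D treated replicate 2.

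**Figure D4:**
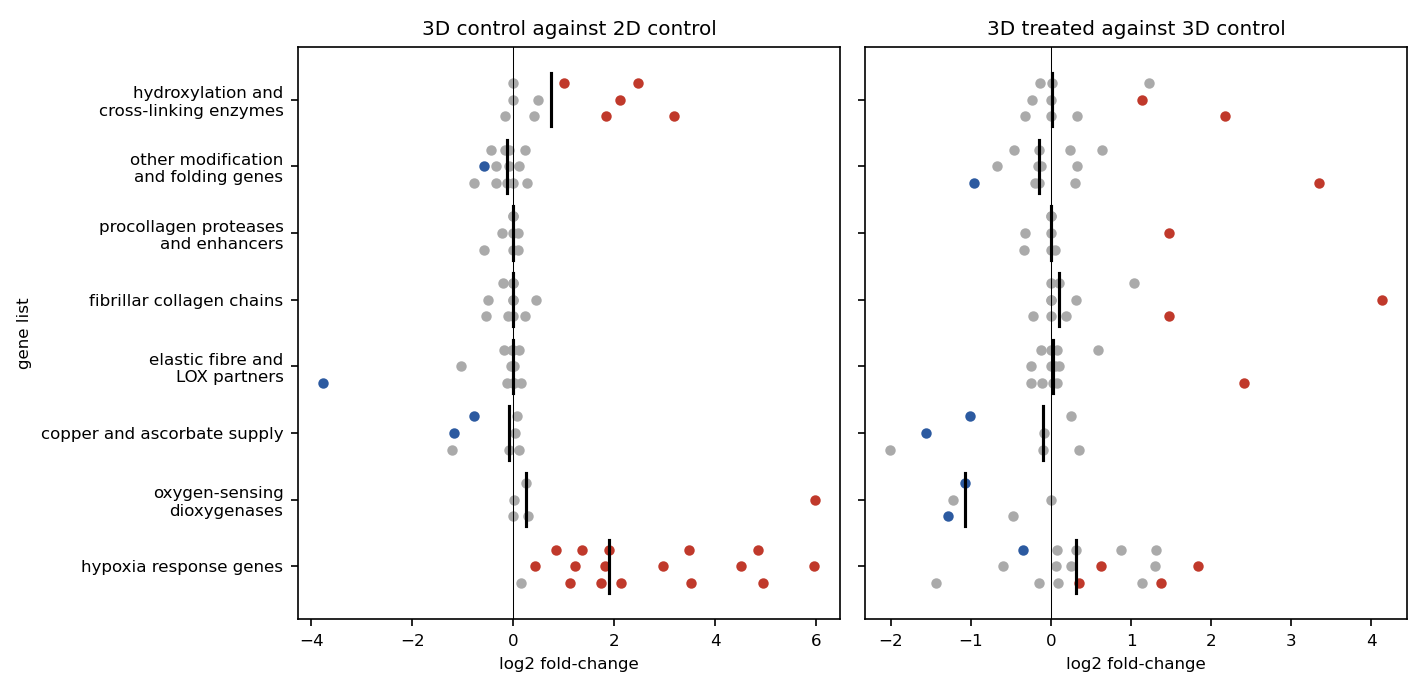
Log2 fold-changes of the genes of 8 lists for control spheroids against control monolayers and for treated against control spheroids, with 1 point a gene, red for called higher, blue for called lower, grey for not called and a black bar at the list median. The hypoxia genes lie above 0 for culture (median 1.88) and have a median of 0.31 for treatment, and the other collagen modification genes have a culture median of -0.14.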

How the data were processed

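Expression was measured in A549 cells on 8 Affymetrix U133 plus 2.0 arrays. The log2 values were deposited by the authors after GCRMA, which corrects background, normalizes and summarizes the probes of a set, and the sample records also name limma 3.6.9. No further normalization was applied. Values at the floor of 2.23 have no order, and array number, 2 a group, limits the precision. The arrays of a group are technical duplicates in the methods and biological replicates in the series description, so p-values measure the spread between arrays, which may be technical.

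All 54613 probe sets (62 control probe sets left out) entered 1 linear model of 4 group means (lmFit and eBayes of limma 3.58.1, R 4.3.3, 4 residual and 0.347 prior degrees of freedom), with Benjamini-Hochberg adjustment over all of them and a threshold of 0.05. The script was tested on simulated data. Only the 41091 probe sets naming 1 gene in the platform annotation stand for genes, and each gene has the probe set with the highest mean. A group is near background when below the array median on both arrays. The genes named are all 10 members, at most 4 called genes of each list in a comparison, P4HB, SERPINH1, P3H1, FKBP10, BMP1, ATP7A, EGLN3 and FN1, and the 3 nearest in pattern. The epithelial markers and COL1A1 were named after their values were seen. Members and lists were chosen with earlier results of these data known, and 1 to 2 listed genes of some lists were not analysed here. Lists are described by counts and medians. Alternatives were quantile normalization, subtraction of array medians, an intensity trend, the replicate number as a block, a filter on dim probe sets, the probe set with the largest change, a minimum fold of 2, fits to the 4 arrays compared, and omission of single arrays. Same-numbered arrays deviated together with correlations of -0.015 to 0.283 over 28189 brighter probe sets, so the numbers were not taken to pair the arrays. Plots used matplotlib 3.10.9 (Python 3.11.15).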

Additional observations from a re-analysis of the deposited data

How the results depend on the processing

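The 5 higher enzymes in control spheroids against control monolayers became 2 with the 4 arrays of the comparison alone and 3 to 5 with each array left out in turn. For treated cultures the 5 became 1 with 4 arrays and 4 to 5 with an array left out. The 2 enzymes called for treated against control spheroids became 4 with array medians subtracted or dim probe sets left out, when LOXL2 and PLOD2 joined, and 0 to 3 with an array left out. With the 4 arrays of that comparison alone LOX was lost (limma adjusted p = 0.109) and LOXL2 passed (0.0228). With the replicate number as a block 1 of them remained called, LOX, and P4HA2 had a limma adjusted p of 0.0594. The block also left 4 of the 5 culture calls among controls, without LOXL2 (0.0802), and changed no count in the other 3 comparisons. In monolayers 0 to 2 enzymes were called with an array left out, and for the difference of responses 0 to 1 (P4HA2 without 2D treated replicate 1, and LOXL3, which lies at the array median, without 2D control replicate 2). With dim probe sets left out the latter was 1, LOX (limma adjusted p = 0.0459). The cause of these changes was not tested, apart from the fewer arrays or probe sets of some fits. A fit without an array assumes that the lone array varies like the other groups. No called difference changed sign. Signs that turned belong to differences that were not called. With an array left out these ranged from -0.084 to 0.724 for the LOXL2 difference of responses, from -0.449 to 0.057 for LOXL4 between treated cultures and from -0.391 to 0.115 for its 3D response. PLOD1 ranged from -0.006 to 0.277 for the 2D response and from -0.12 to 0.163 between treated cultures. PLOD3 ranged from -0.138 to 0.042 for the 2D response, from -0.054 to 0.087 for the 3D response and from -0.026 to 0.154 for their difference. With array medians subtracted PLOD1 between treated cultures was -0.032, and PLOD3 was -0.037 for the 3D response and -0.008 for the difference of responses. PLOD3 between treated cultures was 0.022 after quantile normalization, and LOXL4 in 3D 0.167 on its probe set with the largest change. Probe sets at the array floor, LOXL1 among them, could not show a difference.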

Other observations

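Both listed genes for transporters of ascorbate, the cofactor of both hydroxylase families, were lower in control spheroids than in control monolayers and lower again in treated spheroids. Ascorbate and its uptake were not measured. SLC23A2 lay at 10.15 and 9.99 in control monolayers, 9.94 and 9.84 in treated monolayers, 8.96 and 8.81 in control spheroids and 7.22 and 7.42 in treated spheroids. It differed by -1.18 between control cultures (limma adjusted p = 0.0148) and by -1.57 with treatment of spheroids (adjusted p = 0.00525), and its response differed between 3D and 2D by -1.38 (adjusted p = 0.0355). That last call was lost with quantile normalization, with the replicate block, on the probe set with the largest change and without 2D control replicate 2 or any single 2D treated or 3D control array. SLC23A1 differed by -0.78 between control cultures and by -1.01 with treatment of spheroids (limma adjusted p = 0.0383 and 0.016). In monolayers it differed with treatment by -1.17, which was not called (limma adjusted p = 0.0938, unadjusted 0.000405), and its 2D treated mean of 7.36 lay below the 3D control mean of 7.75. These were the only 2 of 7 copper and ascorbate genes called in either comparison, in the fit to all 8 arrays. Between control cultures 1 was called with any single array left out or with the replicate block, 0 with the 4 arrays alone and 3 with dim probe sets left out. With treatment of spheroids 1 was called without 3D control replicate 1, 3D control replicate 2 or 3D treated replicate 2, 0 with the 4 arrays alone, and 3 with dim probe sets left out or without 3D treated replicate 1. The copper pump gene ATP7A, which loads lysyl oxidases with copper, differed by -2.02 with treatment of spheroids, but its 3D treated arrays read 6.60 and 4.85 and it was not called (limma adjusted p = 0.15). Of the oxygen-sensing dioxygenases EGLN1 and P4HTM fell by 1.29 and 1.07 with treatment of spheroids (limma adjusted p = 0.00413 and 0.0363).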
